A study of Mus musculus with 22 samples.

Results

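The genes described here encode the enzymes that turn prohormones into active peptides inside secretory granules, together with the granins, the acidic proteins that fill those granules. They were taken by symbol from a table of 57010 genes: Pcsk1, Pcsk2, Cpe, Pcsk1n, Scg5, Pam, Chga, Chgb, Scg2 and Vgf. All 10 were found as 1 row each, and all 10 were above the filter on low values (at least 1 TPM in at least 5 mice) that left 16756 genes for testing. TPM, the unit of the table, is a level per unit of transcript length that adds up to 1000000 in every library. Each of the 10 genes reached 1 TPM in all 22 mice.

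The series measured polyadenylated RNA of pancreatic islets, the hormone-secreting clusters of the pancreas, from 22 male mice, with 1 mouse per library. Their age is given as 5.5 weeks in the series design and as 5 to 6 weeks in the column names. On a background labelled C57 there were 5 wild-type mice (C57 WT) and 6 mice heterozygous for the S64F change in MAFA (C57 Het), and on a background labelled Mixed there were 5 wild-type (Mixed WT) and 6 heterozygous mice (Mixed Het). MAFA is a DNA-binding regulator of insulin and other beta cell genes. The strains that make up the Mixed background are not given in the labels, and no treatment is listed for any group.

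Prohormones enter the granule as long precursors. The endoproteases encoded by Pcsk1 and Pcsk2 cut them after pairs of basic residues, the carboxypeptidase encoded by Cpe removes those residues, and the enzyme encoded by Pam amidates peptides whose C-terminal residue is glycine. Pcsk1n encodes proSAAS, an inhibitor of the Pcsk1 convertase, and Scg5 encodes the chaperone that the Pcsk2 convertase needs to mature. In islets some of these enzymes help make insulin in beta cells and glucagon in alpha cells. The granins Chga, Chgb, Scg2 and Vgf travel in the same granules, where they help hormones condense and are themselves cut into peptides.

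Stretches of 3 promoters carry the 8-base cyclic AMP response element TGACGTCA, the site bound by CREB and related factors, at almost the same distance from the start of transcription. All 3 genes were higher in Het mice on both backgrounds, as were Pcsk2 and Pam, whose promoters hold no TGACGTCA. The promoters of Pcsk1n and Scg5 also lack it. Pcsk1n was higher in Mixed only, and Scg5 passed the test on neither background. Of all genes tested, 26.4% were higher in C57 and 30.7% in Mixed. Any link between this motif and the differences was not tested. The promoter of Chga, whose level did not pass the test on either background, is shown beside the 3 with TGACGTCA. Each line gives the 150 bases that end 1 base before the start site, 5′ to 3′ on the gene's strand, from the RefSeq table of build GRCm38.p6. Capitals mark TGACGTCA in the first 3 sequences and, in Chga, the 5-base motif TGACG. In Chga that motif is followed by taa, so those 8 bases differ from TGACGTCA at only 1 base. The stretches lie at chr13:75089707-75089856 (plus strand, Pcsk1), chr2:132781492-132781641 (plus strand, Chgb), chr1:79440027-79440176 (minus strand, Scg2) and chr12:102554791-102554940 (plus strand, Chga), just upstream of the first exon of each gene.
Pcsk1: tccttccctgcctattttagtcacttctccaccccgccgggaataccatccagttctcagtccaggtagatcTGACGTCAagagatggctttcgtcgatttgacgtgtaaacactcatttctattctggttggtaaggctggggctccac
Chgb: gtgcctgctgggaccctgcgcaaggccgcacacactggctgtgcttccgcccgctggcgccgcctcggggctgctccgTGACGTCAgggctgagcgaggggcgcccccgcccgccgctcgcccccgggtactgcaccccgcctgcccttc
Scg2: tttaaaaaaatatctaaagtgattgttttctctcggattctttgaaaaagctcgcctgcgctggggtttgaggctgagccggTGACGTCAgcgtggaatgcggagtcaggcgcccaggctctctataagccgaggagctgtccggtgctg
Chga: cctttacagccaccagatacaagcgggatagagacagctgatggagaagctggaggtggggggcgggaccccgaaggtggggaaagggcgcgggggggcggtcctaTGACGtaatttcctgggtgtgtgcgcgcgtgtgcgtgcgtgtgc

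The full windows searched run 300 bases, to 50 bases past the start site, on both strands. Promoters were matched for 8 of the 10 genes, all but Cpe and Vgf. TGACGTCA was found in 3 of the 8, starting 78 bases before the start site in Pcsk1, 72 bases before it in Chgb and 68 bases before it in Scg2, against 1.79% of 32851 promoters. The shorter TGACG, which every TGACGTCA contains on each strand, was found in 6 of the 8 (Pcsk1, Pcsk2, Scg5, Chga, Chgb and Scg2) against 20.8% of all promoters. TGCTGA, the core letters of the element that MAF proteins bind, was found in 1 of the 8 (Scg2) against 19.5%. These matches describe letters only.

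Mafa RNA itself was lower in Het mice. It read 362, 571, 375, 409 and 487 TPM in C57 WT, against a lowest value of 93.8, a median of 108 and a highest of 152 TPM in C57 Het. Mixed WT mice read 775, 534, 520, 440 and 720 TPM, and Mixed Het mice had a lowest value of 95.2, a median of 160 and a highest of 199 TPM. No Het mouse reached a WT level on its background. These reads do not tell the changed allele from the normal one. Insulin RNA was the defining marker of the tissue, with Ins2 at 260458 ± 23190 TPM (SD, n = 5) in C57 WT.

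The 10 genes were highly expressed. By mean TPM over the 22 mice, Chga was the 8th most abundant gene of the table, Scg2 the 14th, Cpe the 17th, Chgb the 22nd, Scg5 the 27th and Pcsk2 the 28th, followed by Pcsk1n at rank 39 and Pcsk1 at rank 105. Pam, at rank 492, and Vgf, at rank 1548, were the least abundant. Together they took 2.29% ± 0.277 (SD, n = 5) of all TPM in C57 WT, 3.23% ± 0.177 (SD, n = 6) in C57 Het, 2.18% ± 0.302 (SD, n = 5) in Mixed WT and 3.07% ± 0.239 (SD, n = 6) in Mixed Het. Chga alone made up 1.28% of all TPM on average.

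Het mice carried more RNA of most of these genes on both backgrounds. In C57, 7 of the 10 were higher in Het mice with an adjusted p under 0.05, where 26.4% of all genes tested were higher. In Mixed 8 of the 10 were higher, where 30.7% of all genes were. With only the 10658 genes of a mean of at least 5 TPM tested, 35.9% were higher in C57 and 35.7% in Mixed. In that fit 8 of the 10 were higher on each background. None of the 10 was lower on either background, where 11.6% of all genes in C57 and 13.5% in Mixed were. Het and WT mice did not overlap, with Het above, for 8 of the 10 in C57 against 15.9% of all genes, and for 7 of the 10 in Mixed against 17.9%. The median difference of the 10 on the log2(TPM + 1) scale was 0.74 in C57 and 0.76 in Mixed, beside 0.08 and 0.10 for all genes tested. With libraries scaled by the median of ratios instead, all genes had medians of 0.01 and -0.01, the 10 genes had medians of 0.65 and 0.62, and 7 and 8 of them were again called. Under that scaling 21.0% of all genes were higher and 18.3% lower in C57, and 21.4% were higher and 22.4% lower in Mixed, so the shares over all genes depend on the scaling. Transcripts of the mitochondrial genome, which can mark RNA or cell quality, made up 4.27% to 9.76% of all TPM in C57 WT and 3.86% to 4.39% in C57 Het, and 4.37% to 9.76% in Mixed WT and 2.80% to 4.06% in Mixed Het. They were thus lower in Het mice, without overlap in Mixed, and their part in the results was not tested. Adjusted p-values throughout are limma's, adjusted by Benjamini-Hochberg over all 16756 genes, and each difference is on the log2(TPM + 1) scale with its standard error (SE).

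**Figure D1:**
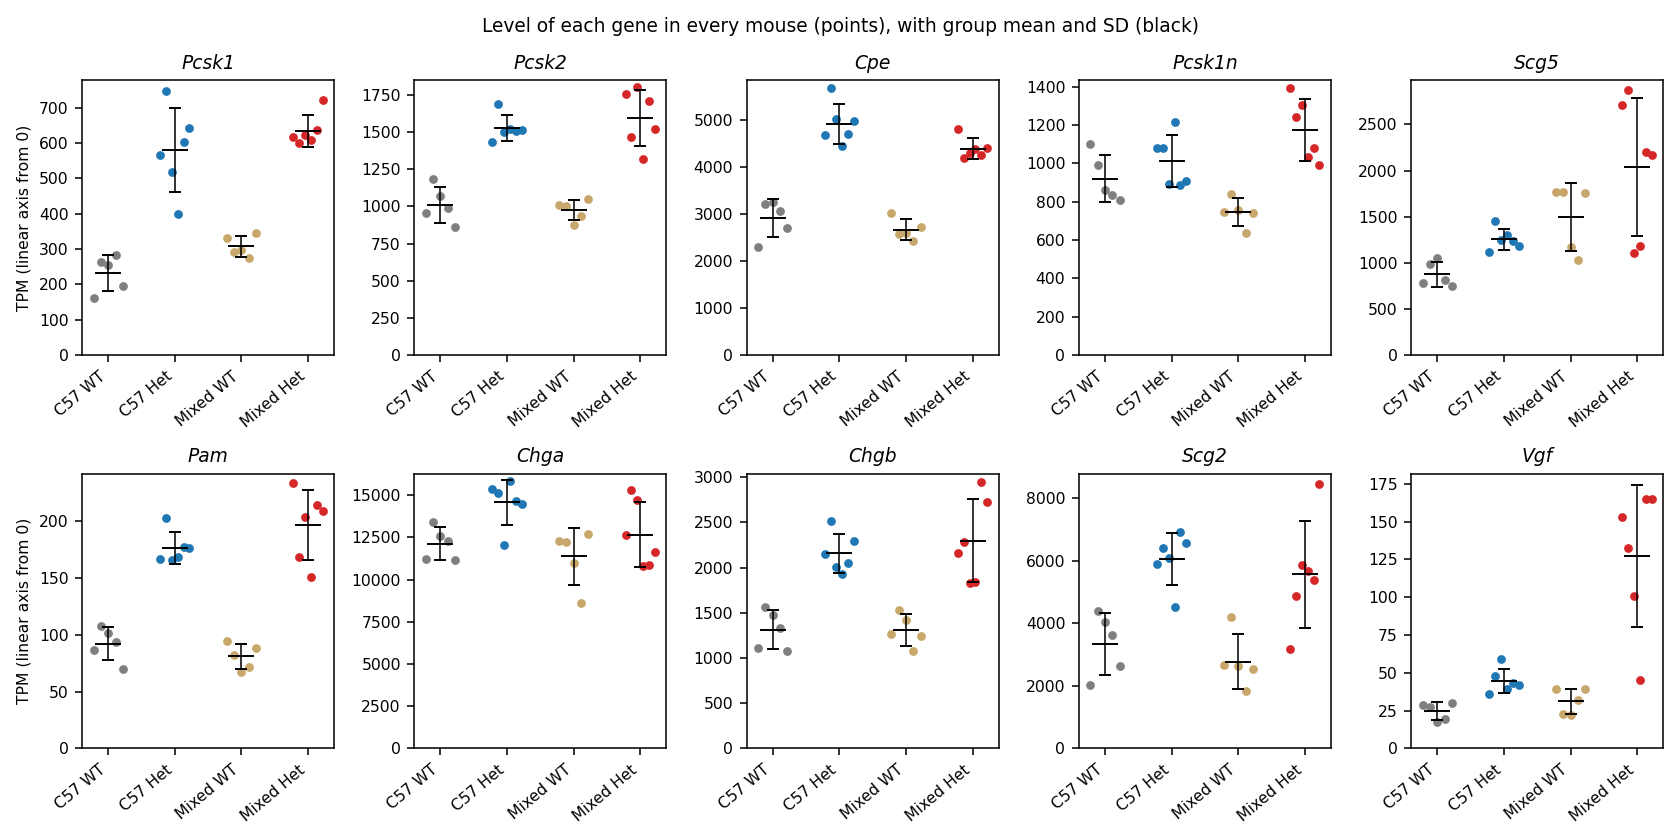
Level of each of the 10 genes (TPM, linear axes from 0) in every mouse by group, with the group mean and SD in black; n = 5 for each WT group and n = 6 for each Het group. Pcsk1, Pcsk2, Cpe, Pam, Chgb and Vgf of Het mice lie above every WT mouse of the same background, while Chga overlaps on both, and Scg5 of Mixed mice spreads over 2 separate ranges.

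Pcsk1, the convertase that opens proinsulin processing, was the member with the largest C57 difference. C57 WT mice read 162, 263, 253, 283 and 195 TPM, and C57 Het mice had a lowest value of 399, a median of 585 and a highest of 748 TPM. The Mixed WT mice had 331, 291, 296, 274 and 345 TPM, and Mixed Het mice had a lowest value of 600.0, a median of 620 and a highest of 722 TPM. Every Het mouse stood above every WT mouse of its background. The difference was 1.33 ± 0.14 (SE) in C57, with an adjusted p of 4.4e-07, and 1.05 ± 0.14 in Mixed, with an adjusted p of 4.1e-06. The ratio of group means was 2.51 in C57 and 2.06 in Mixed.

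Pcsk2, the convertase that also matures glucagon-family and somatostatin precursors in other islet cells, rose less. The C57 WT mice had 958, 1185, 1068, 990 and 862 TPM, against a lowest value of 1437, a median of 1512 and a highest of 1693 TPM in C57 Het. In Mixed WT mice it read 1007, 1005, 874, 939 and 1049 TPM, against a lowest value of 1322, a median of 1615 and a highest of 1802 TPM in Mixed Het. The groups did not overlap on either background. The difference was 0.60 ± 0.09 (SE; adjusted p = 3.1e-05) on C57 and 0.71 ± 0.09 (SE; adjusted p = 2.1e-06) on Mixed.

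Pcsk1 relative to Pcsk2 averaged higher in Het than in WT mice on both backgrounds. The ratio of Pcsk1 to Pcsk2 TPM within a library was 0.228 ± 0.0416 (SD, n = 5) in C57 WT and 0.378 ± 0.0656 (SD, n = 6) in C57 Het, and 0.316 ± 0.0232 (SD, n = 5) in Mixed WT and 0.402 ± 0.0551 (SD, n = 6) in Mixed Het. In C57, 5 of 6 Het mice were above all WT mice, the exception being replicate 4 at 0.262, and in Mixed all 6 were. A ratio within a library does not depend on how the library was scaled, and these ratios are given as a description, with no test.

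Pcsk1n, the inhibitor, behaved differently on the 2 backgrounds. In C57 WT mice it read 1101, 992, 860, 837 and 811 TPM, and C57 Het mice had a lowest value of 889, a median of 994 and a highest of 1217 TPM, so the groups overlapped almost fully. Mixed WT mice read 749, 840, 759, 635 and 740.5 TPM, and Mixed Het mice had a lowest value of 994, a median of 1163 and a highest of 1396 TPM, all above WT. The difference was 0.14 ± 0.11 (SE; 95% interval -0.09 to 0.36; adjusted p = 0.35) on C57 and 0.65 ± 0.11 (SE; adjusted p = 6.5e-05) on Mixed. The genotype difference was larger in Mixed than in C57 by 0.52 ± 0.15 (SE), with an adjusted p of 0.045, the only such difference among the 10 genes where 7.36% of all genes had one. That call lies close to the threshold. It was lost in 14 of the 22 fits that left out 1 mouse, whose adjusted p ran from 0.0347 to 0.0815 over all 22, while the difference stayed between 0.45 and 0.57.

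Against its inhibitor, Pcsk1 was at 0.257 ± 0.0714 (SD, n = 5) of the Pcsk1n level in C57 WT and 0.585 ± 0.145 (SD, n = 6) in C57 Het. In Mixed the ratio was 0.415 ± 0.0474 (SD, n = 5) in WT and 0.551 ± 0.106 (SD, n = 6) in Het. On each background 5 of 6 Het mice were above all WT mice.

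**Figure D2:**
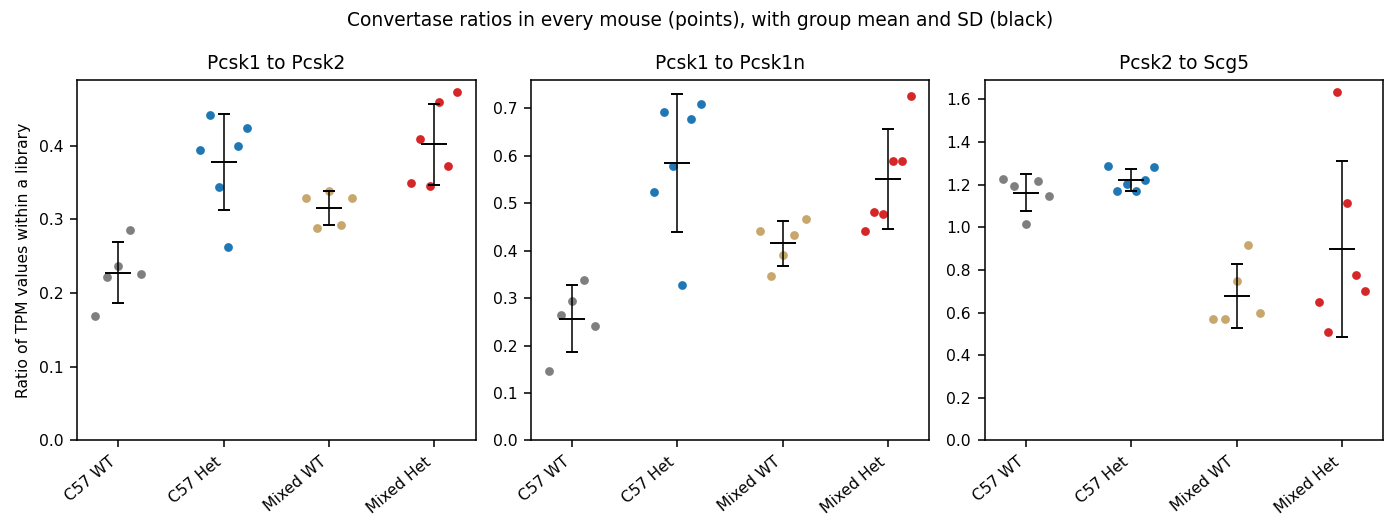
Ratios of TPM values within each library, for Pcsk1 to Pcsk2, Pcsk1 to Pcsk1n and Pcsk2 to Scg5, in every mouse by group, with mean and SD in black (linear axes from 0). Pcsk1 to Pcsk2 averages 0.228 and 0.378 in C57 WT and Het and 0.316 and 0.402 in Mixed WT and Het, and Pcsk2 to Scg5 is lower in most Mixed than C57 mice.

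Scg5, the chaperone of Pcsk2, was the 1 gene of the 10 that differed between backgrounds in both WT and Het mice. C57 WT mice read 780, 991, 1050, 812 and 752 TPM, and C57 Het mice had a lowest value of 1114, a median of 1238 and a highest of 1449 TPM. The Mixed WT mice had 1767, 1767, 1171, 1026 and 1757 TPM, and the 6 Mixed Het mice read 2707, 2872, 1104, 1185, 2200 and 2171 TPM. Mixed mice thus fell into 2 ranges, with 2 WT and 2 Het mice between 1026 and 1185 TPM and the other 3 WT and 4 Het mice at 1757 TPM or more. No C57 mouse was above 1449 TPM.

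The genotype difference of Scg5 did not pass the test on either background, although no C57 Het mouse overlapped WT. It was 0.52 ± 0.22 (SE; 95% interval 0.08 to 0.97; adjusted p = 0.059) on C57 and 0.39 ± 0.22 (SE; 95% interval -0.06 to 0.84; adjusted p = 0.15) on Mixed. A fit on the 11 C57 mice alone, which leaves the wide spread of the Mixed mice out, gave an adjusted p of 0.0028 in C57. Without Mixed Het replicate 3 or 4, the mice at 1104 and 1185 TPM, the Mixed difference was 0.55 and 0.53 with adjusted p-values of 0.029 and 0.044. Those fits kept the Mixed WT mice of the low range. Over all fits that left out 1 mouse, the Mixed difference ran from 0.26 to 0.55, with adjusted p from 0.029 to 0.37. Mixed mice had more Scg5 than C57 mice, by 0.75 ± 0.22 (SE; adjusted p = 0.034) in WT, where 11.3% of all genes differed, and by 0.61 ± 0.21 (SE; adjusted p = 0.038) in Het, where 20.5% did. In WT mice this call was lost without any 1 of 6 mice (C57 WT replicates 1, 4 and 5 and Mixed WT replicates 1, 2 and 5), with adjusted p up to 0.085, and in Het mice without any 1 of 9 (C57 Het replicates 1, 3, 4, 5 and 6 and Mixed Het replicates 1, 2, 5 and 6), with adjusted p up to 0.10.

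Of the 20 genes whose levels followed Scg5 most closely over the 11 Mixed mice, by absolute Pearson correlation, 9 lay on that chromosome, which held 8.2% of the 7718 genes compared. Over the 11 C57 mice, 1 of the 20 nearest genes did. Ivd, a mitochondrial enzyme of leucine breakdown and 1 of those 9, was chosen as an example after its values were seen. It fell into the same 2 sets of Mixed mice, and read 60.0 and 62.0 TPM in the 2 Mixed WT mice with low Scg5 and between 27.4 and 31.1 TPM in the other 3, and 70.9 and 77.0 TPM in the 2 Mixed Het mice with low Scg5 against 23.5 to 41.6 TPM in the other 4. The C57 mice lay between 71.1 and 114 TPM. The split was not as clear in Ccdc9b, another of the 9, where Mixed WT mice read 34.1 and 40.7 TPM with low Scg5 and 31.0, 31.2 and 33.6 TPM with high Scg5. Which allele each Mixed mouse carries near Scg5 was not tested.

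**Figure D3:**
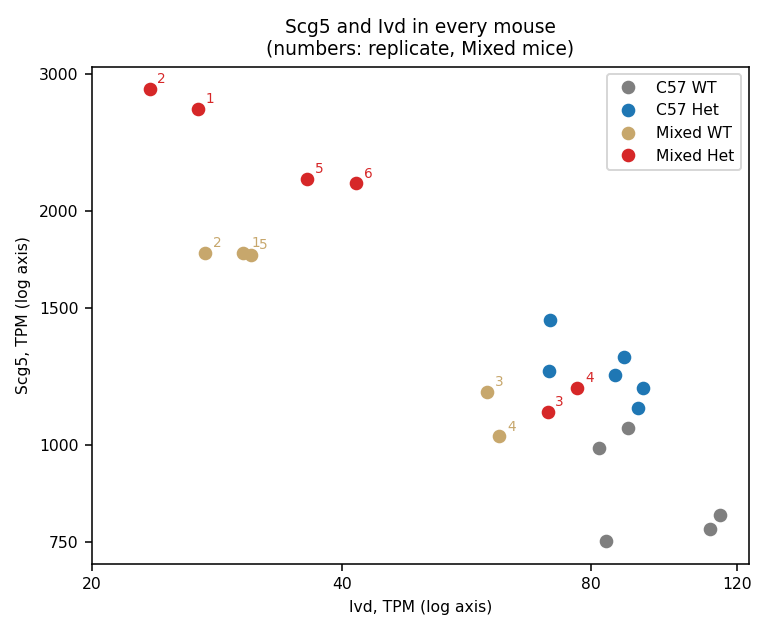
Scg5 against Ivd in every mouse (TPM, both axes logarithmic), coloured by group, with replicate numbers beside the Mixed mice. Mixed WT replicates 3 and 4 and Mixed Het replicates 3 and 4 lie near the C57 mice at low Scg5 and high Ivd, and the other 7 Mixed mice lie apart at 1757 TPM of Scg5 or more.

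Scg5 was high in most Mixed mice, and the ratio of Pcsk2 to its chaperone was 1.16 ± 0.0867 (SD, n = 5) in C57 WT and 1.22 ± 0.0524 (SD, n = 6) in C57 Het, but 0.679 ± 0.151 (SD, n = 5) in Mixed WT and 0.898 ± 0.413 (SD, n = 6) in Mixed Het. Within each background the genotypes overlapped.

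The enzymes that act after the convertases both rose. Cpe ranged from 2303 to 3261 TPM in WT and 4453 to 5673 TPM in Het mice of C57, and from 2433 to 3023 TPM in WT and 4197 to 4804 TPM in Het mice of Mixed. The difference was 0.76 ± 0.09 (SE; adjusted p = 3.2e-06) on C57 and 0.72 ± 0.09 (SE; adjusted p = 3.1e-06) on Mixed, and no Het mouse overlapped a WT mouse of its background. The interaction was -0.04 (95% interval -0.32 to 0.23).

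Pam, the amidating enzyme, was expressed at a lower level than the proteases and changed more than Cpe. The C57 WT mice had 86.9, 107, 102, 93.3 and 69.9 TPM, against a lowest value of 166, a median of 172 and a highest of 202 TPM in C57 Het. In Mixed WT mice it read 94.7, 81.8, 67.5, 71.6 and 88.1 TPM, against a lowest value of 150, a median of 206 and a highest of 233 TPM in Mixed Het. All Het mice were above all WT mice. The difference was 0.94 ± 0.12 (SE; adjusted p = 3.9e-06) on C57 and 1.27 ± 0.12 (SE; adjusted p = 3.5e-08) on Mixed, and the 2 differences were not told apart (interaction 0.32, 95% interval -0.02 to 0.67, adjusted p = 0.22).

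Among the granins, Vgf, whose product is cut into several neuroendocrine peptides, was the least abundant and changed most in Mixed mice. In C57 WT mice it read 29.0, 27.7, 17.6, 19.4 and 29.9 TPM, and C57 Het mice had a lowest value of 35.9, a median of 42.6 and a highest of 59.2 TPM. Mixed WT mice read 39.2, 23.0, 22.4, 32.2 and 39.6 TPM, and the Mixed Het mice read 153, 133, 101, 45.5, 165 and 165 TPM. Replicate 4 stood far below the other 5 Mixed Het mice yet above every Mixed WT mouse.

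The Vgf difference was 0.84 ± 0.26 (SE; adjusted p = 0.014) on C57 and 1.91 ± 0.26 (SE; adjusted p = 5.2e-06) on Mixed, with ratios of group means of 1.80 and 4.06. The difference between backgrounds was 1.07 ± 0.37 (SE; 95% interval 0.31 to 1.83), with an adjusted p of 0.073. Without Mixed Het replicate 4 it was 1.34, with an adjusted p of 0.0046. Over all fits that left out 1 mouse it ran from 0.97 to 1.34, with adjusted p from 0.0046 to 0.13. Mixed Het mice had more Vgf than C57 Het mice, by 1.39 ± 0.25 (SE; adjusted p = 0.00044), and 5 of 6 were above all C57 Het mice. Between WT mice of the 2 backgrounds the difference was 0.32 (95% interval -0.24 to 0.88; adjusted p = 0.49).

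Scg2, the precursor of secretoneurin, varied widely among mice of a group. It read 2040, 4411, 4056, 3636 and 2627 TPM in C57 WT, against a lowest value of 4538, a median of 6243 and a highest of 6921 TPM in C57 Het. It read 2674, 4204, 2633, 1829 and 2546 TPM in Mixed WT, and the Mixed Het mice had a lowest value of 3174, a median of 5534 and a highest of 8456 TPM. In C57 the genotypes did not overlap, and in Mixed 5 of 6 Het mice were above all WT mice. The difference was 0.90 ± 0.23 (SE; adjusted p = 0.0040) on C57 and 0.999 ± 0.228 (SE; adjusted p = 0.0013) on Mixed.

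Chgb, secretogranin I, rose by 0.73 ± 0.13 (SE; adjusted p = 0.00024) on C57 and 0.80 ± 0.13 (SE; adjusted p = 4.8e-05) on Mixed. Its range was 1083 to 1564 TPM in C57 WT, 1929 to 2518 TPM in C57 Het, 1081 to 1532 TPM in Mixed WT and 1833 to 2944 TPM in Mixed Het, with no overlap within a background.

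Chga, the granin that dominates these granules by RNA level, did not pass the test on either background. C57 WT mice read 11232, 13420, 12590, 12274 and 11147 TPM, and C57 Het mice had a lowest value of 12067, a median of 14888 and a highest of 15832 TPM. The Mixed WT mice had 12296, 12224, 10997, 8603 and 12724 TPM, and Mixed Het mice had a lowest value of 10826, a median of 12121 and a highest of 15330 TPM. The difference was 0.26 ± 0.13 (SE; 95% interval 0.00 to 0.53; adjusted p = 0.10) on C57 and 0.16 ± 0.13 (SE; 95% interval -0.11 to 0.42; adjusted p = 0.33) on Mixed. Both intervals end below the estimates of Chgb and Scg2 on the same background, although the difference between these genes was not itself tested.

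**Figure D4:**
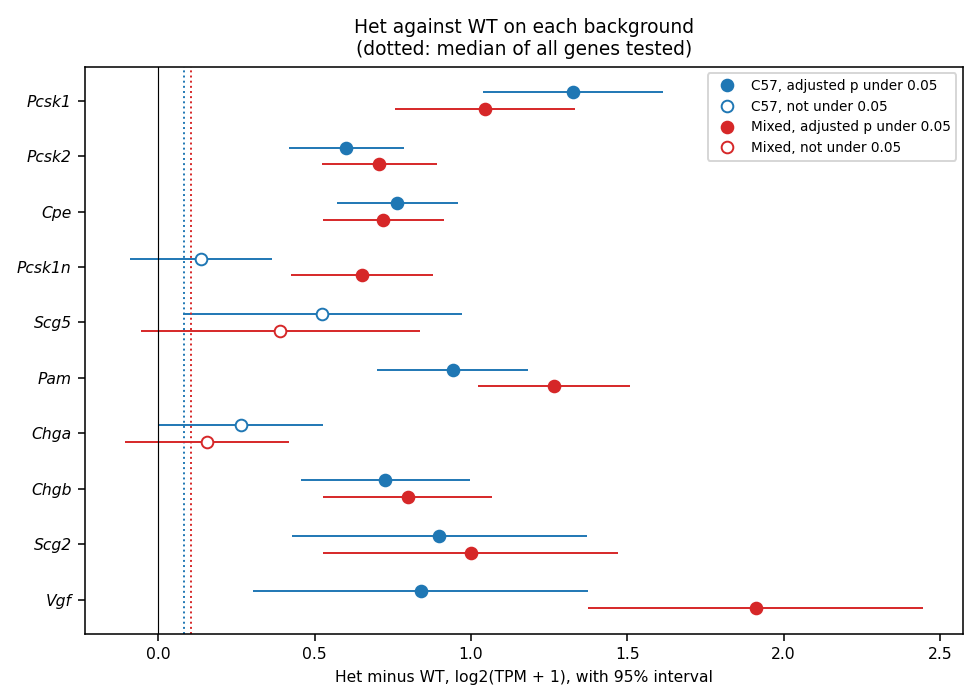
Difference between Het and WT for each gene on the log2(TPM + 1) scale, with its 95% interval, in C57 (blue) and Mixed (red); filled points passed an adjusted p of 0.05, and dotted lines mark the median of all genes tested (0.08 and 0.10). All 20 estimates lie above 0, with Pcsk1 at 1.33 and 1.05 and Vgf at 0.84 and 1.91.

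Apart from Scg5 and Vgf, none of the 10 genes passed the test between Mixed and C57 mice of the same genotype in the deposited scaling. Pcsk1n of WT mice was lower in Mixed with 2 other scalings, by -0.40 (adjusted p = 0.0040) with quantile normalization and by -0.35 (adjusted p = 0.032) with totals without the most abundant genes. With quantile normalization Pcsk1 of WT mice was also called (0.45, adjusted p = 0.046) and Scg5 was not (0.62, adjusted p = 0.071). In the deposited scaling the nearest was Pcsk1 in WT mice, higher in Mixed by 0.43 ± 0.14 (SE; adjusted p = 0.055), with 4 of 5 Mixed WT mice above all C57 WT mice. Without C57 WT replicate 2 or 4, or without C57 Het replicate 2 or 4, its adjusted p was under 0.05 (lowest 0.030). Over all fits that left out 1 mouse, its adjusted p went up to 0.16 and the difference ran from 0.31 to 0.51. Pcsk1 of Het mice differed between backgrounds by 0.15 (95% interval -0.12 to 0.43).

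Set against insulin RNA, the substrate made in beta cells, every one of the 10 genes had a higher mean ratio in Het mice. Taking the sum of Ins1 and Ins2 in each library as the base, Pcsk1 stood at 0.0585% ± 0.0109 (SD, n = 5) in C57 WT and 0.185% ± 0.0437 (SD, n = 6) in C57 Het, a ratio of means of 3.15, and at 0.0771% ± 0.00502 (SD, n = 5) and 0.234% ± 0.0321 (SD, n = 6) in Mixed, a ratio of 3.04. The ratio of means was 2.39 and 3.61 for Pam, 2.12 and 2.43 for Cpe, 1.89 and 2.42 for Pcsk2, 2.24 and 6.15 for Vgf, and 1.504 and 1.64 for Chga, in C57 and Mixed in turn. Het and WT mice overlapped only for Pcsk1n in C57 and for Scg5 in Mixed. The share of all genes that would separate by this ratio was not computed. Mean Ins1 and Ins2 levels were themselves lower in Het mice, which raises the ratio to insulin of any gene. For Chga, the ratio of group means of TPM alone was 1.20 in C57 and 1.11 in Mixed. Ins1 and Ins2 are near-identical copies, and how reads shared between them were counted is not given in the sources used here. The sum does not depend on how shared reads were divided between Ins1 and Ins2, but it would be lower if such reads were left out.

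Cell type markers moved with these differences. In bulk islets, fewer cells of a type and less RNA per cell cannot be told apart. The summed alpha cell markers (8 genes) ranged from 19242 to 57842 TPM in WT and 71896 to 117906 TPM in Het mice of C57, and from 16081 to 27852 TPM in WT and 65888 to 107851 TPM in Het mice of Mixed. Of these 8 genes, 8 were higher in C57 Het and 7 in Mixed Het. For this and the marker counts that follow, 26.4% of all genes were higher and 11.6% lower in C57, and 30.7% and 13.5% in Mixed. Of the 4 delta cell markers, 4 were higher on each background, with Sst up by 0.67 in C57 and 1.32 in Mixed. The summed beta cell markers (8 genes) ranged from 371122 to 450382 TPM in C57 WT, 325059 to 380435 in C57 Het, 402578 to 480009 in Mixed WT and 251635 to 343462 in Mixed Het, and 1 of 8 was lower (Ins1) and 1 higher (G6pc2, at 0.38) in C57, and 5 of 8 were lower and 0 higher in Mixed. With totals without the most abundant genes, 3 were lower and 0 higher in C57.

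Exocrine acinar markers (8 of 9 tested, with Amy2a2 at or near 0) had a summed level of 210.0 to 389 TPM in C57 WT, 258 to 1635 TPM in C57 Het, 172 to 860.2 TPM in Mixed WT and 618 to 1178 TPM in Mixed Het. In C57 8 of the 8 were higher and in Mixed 1 was. With quantile normalization or totals without the most abundant genes, 7 were higher in C57. Ductal markers were higher for 3 of 5 in C57 and 5 of 5 in Mixed, and immune and mesenchymal markers for 0 of 11 in C57 and for 5 of 5 and 5 of 6 in Mixed. Under the 3 other scalings tried, 2 ductal markers were higher in C57 and 3 or 4 in Mixed. Endothelial markers were lower for 3 of 6 in C57 and for 0 in Mixed, with 0 higher on either. Alpha and delta cells also express the convertases, Cpe and granins. The part of these cell types in the results was tested only to the extent of 2 covariates. With the acinar score in the model, 6 of the 10 genes were higher in C57 and 8 in Mixed, where 14.4% and 25.0% of all genes were, and the C57 call of Vgf was lost (0.84, adjusted p = 0.071). With the mean log2 level of Gcg, Sst, Ppy and Pyy in the model, 6 of the 10 genes were called on each background, where 9.10% of all genes in C57 and 5.88% in Mixed were higher. In that fit Pcsk1 was at 1.59 and 1.54, Cpe at 0.83 and 0.85, and Pam at 0.89 and 1.16 in C57 and Mixed. The calls lost were Pcsk1n in Mixed at 0.19 (adjusted p = 0.53), Scg2 in Mixed 1.33 (adjusted p = 0.060) and Vgf in C57 0.96 (adjusted p = 0.072). Since the covariate itself differs between genotypes, such a fit cannot separate them.

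The other convertases of the family moved in both directions or did not pass the test. Of 6 tested, 2 were higher and 2 lower in C57 Het, and 0 were higher and 2 lower in Mixed Het, with medians of 0.10 and 0.08. For this and the lists that follow, 26.4% of all genes were higher and 11.6% lower in C57, and 30.7% and 13.5% in Mixed. With median-of-ratios scaling or totals without the most abundant genes, 1 of the 6 was higher in C57. Pcsk4, a convertase best known from germ cells, fell from 81.8 ± 25.8 TPM (SD, n = 5) to 38.0 ± 5.97 (SD, n = 6) in C57, a difference of -1.04 ± 0.16 (SE; adjusted p = 4.1e-05), and from 70.2 ± 13.97 (SD, n = 5) to 26.1 ± 1.002 TPM (SD, n = 6) in Mixed, a difference of -1.37 ± 0.16 (SE; adjusted p = 6.5e-07). Mbtps1, the site-1 protease, rose by 0.37 on C57 (adjusted p = 0.0034) and stood at 0.14 on Mixed (adjusted p = 0.23).

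Other enzymes that trim or modify peptide ends were mixed. Of 13 tested, 6 were higher and 1 lower in C57, and 6 were higher and 2 lower in Mixed, with medians of 0.27 and 0.44. Ece1, endothelin-converting enzyme, rose by 0.87 ± 0.08 (SE; adjusted p = 6.5e-08) on C57 and 0.93 ± 0.08 (SE; adjusted p = 1.4e-08) on Mixed. The cathepsins Ctsb and Ctsl rose by 0.62 and 0.55 in C57 and by 0.87 and 0.49 in Mixed, and the carboxypeptidase N subunit gene Cpn1 by 0.43 and 0.63. Cpm, a membrane carboxypeptidase, fell by 0.88 in C57 and 1.21 in Mixed.

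Of 12 genes tested in a list of other granule proteins and endocrine cell genes, 6 were higher and 1 lower in C57. In Mixed 8 were higher and 2 lower, and the medians were 0.29 in C57 and 0.55 in Mixed. Cryba2, a crystallin gene expressed in islet endocrine cells, rose most, from 98.4 ± 35.1 TPM (SD, n = 5) to 363 ± 46.1 (SD, n = 6) in C57 and from 72.6 ± 15.9 (SD, n = 5) to 849 ± 233 TPM (SD, n = 6) in Mixed. Its difference was 1.93 ± 0.21 (SE; adjusted p = 6.2e-07) on C57 and 3.51 ± 0.21 (SE; adjusted p = 1.0e-10) on Mixed, and was larger in Mixed by 1.58 (adjusted p = 0.0043). Gnas, which encodes a G protein subunit and the granin-like NESP55 from 1 locus, rose by 0.54 and 1.13. Nucb2, the nesfatin precursor, rose by 0.32 and 0.79, and Ptprn2, a granule membrane phosphatase, by 0.77 and 0.46. Under the 3 other scalings tried, 4 of the 12 were higher in C57 and 5 or 6 in Mixed, and the calls of Nucb2 in C57 and Ptprn2 in Mixed were lost. Prss53, a serine protease, fell by 0.94 and 1.10. Scg3, a granin that anchors granin aggregates to the granule membrane, was added to the named genes after its values were seen and rose by 0.68 and 0.64.

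The prohormones that these enzymes cut did not move as a block. Of 20 tested, 5 were higher and 4 lower in C57, and 10 were higher and 2 lower in Mixed, with the share higher in C57 near that of all genes. Ins1 fell by 0.61 on C57 (adjusted p = 0.0059) and 0.73 on Mixed (adjusted p = 0.0010). The call was lost in C57 under median-of-ratios scaling and on both backgrounds under quantile normalization. Ins2 stood at -0.19 on C57 (adjusted p = 0.50) and -0.46 on Mixed (adjusted p = 0.077), and Iapp, islet amyloid polypeptide, was -0.03 and 0.26. Gcg, the glucagon precursor, rose by 1.37 (adjusted p = 0.00042) and 2.18 (adjusted p = 1.2e-06). Pyy stood at 0.35 in C57 (adjusted p = 0.18) and rose by 0.95 in Mixed, and Ppy stood at 0.31 and 0.64, both short of the threshold. Ucn3, urocortin 3 of mature beta cells, was -0.32 in C57 (adjusted p = 0.095) and fell by 1.502 in Mixed. Gal, the galanin precursor, rose by 1.25 and 1.48 from about 1 TPM. Pdyn, the dynorphin precursor, fell by 2.80 on C57 (adjusted p = 1.7e-05) and stood at 0.43 on Mixed (adjusted p = 0.39), a difference between backgrounds of 3.23 (adjusted p = 0.0027).

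Genes for granule biogenesis and acidification, the steps that set the acidic lumen in which convertases work, were higher for 12 of 16 and lower for 0 in C57, and higher for 5 and lower for 1 in Mixed, with medians of 0.44 and 0.18. The Mixed count is at the share of all genes. Under the 3 other scalings these counts were 10 and 0 in C57 and 3 and 2 in Mixed. Slc31a1, the copper importer (Pam is a copper enzyme), rose by 1.13 on C57 (adjusted p = 1.4e-08) and 0.94 on Mixed (adjusted p = 5.8e-08). The proton pump genes Atp6ap1, Atp6v1a and Atp6ap2 rose by 0.47, 0.57 and 0.50 in C57. In Mixed, Atp6ap1 rose by 0.58, Atp6ap2 was called at 0.33 only in the deposited scaling, and Atp6v1a stood at 0.19 (adjusted p = 0.26). Vps41, which acts in granule formation, rose by 0.50 and 0.31.

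**Figure D5:**
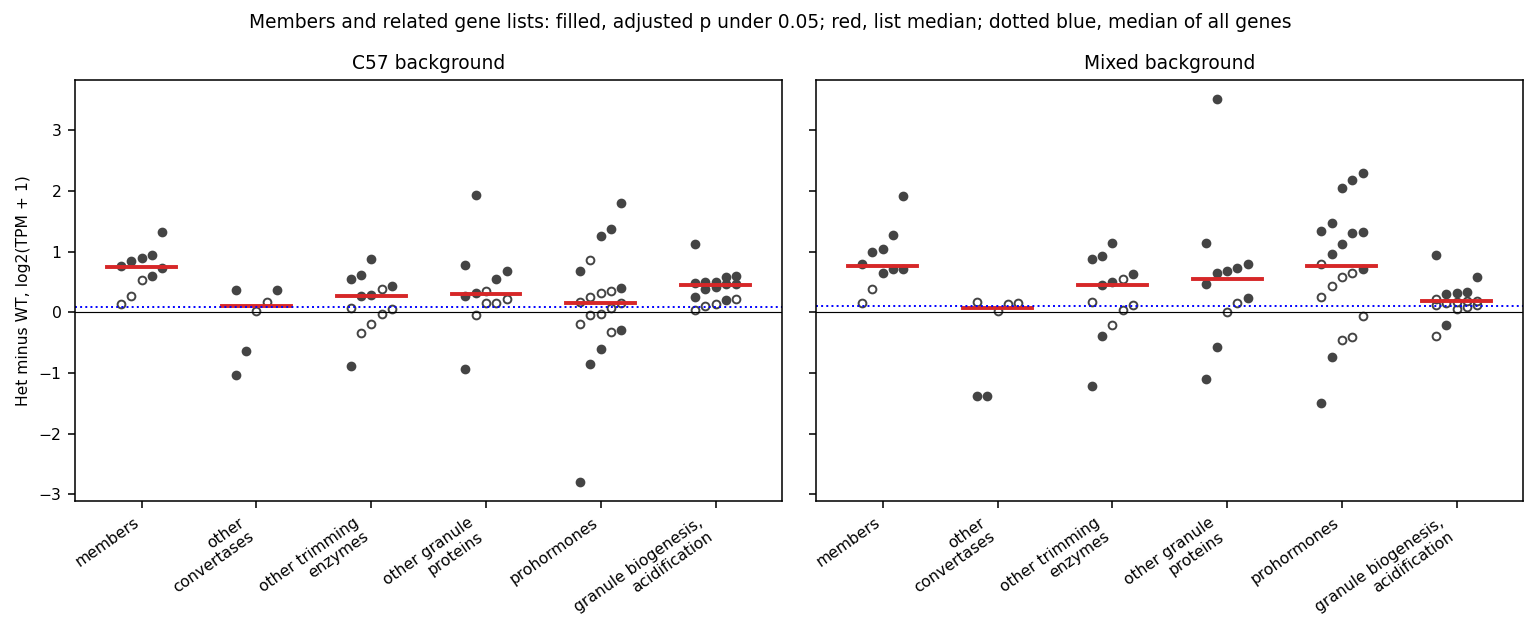
Het minus WT on the log2(TPM + 1) scale for the 10 genes and 5 related lists, in C57 (left) and Mixed (right); each point is a gene, filled where the adjusted p was under 0.05, red bars are list medians and the dotted line is the median of all genes tested. The 10 genes have medians of 0.74 and 0.76, and the other convertases 0.10 and 0.08.

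Within groups, some of the 10 genes rose and fell together from mouse to mouse. After subtraction of each group's mean, Pcsk2 and Pam were correlated (Pearson's r 0.898, Spearman's rho 0.872) over the 22 mice (permutation within groups, two-sided p = 1e-05 for each, the smallest that the 100000 resamples can give; adjusted over the 45 pairs, 0.00045). It was 0.865 without the 2 mice farthest from the median. Pcsk1 and Cpe had an r of 0.793 and a rho of 0.748 (permutation p = 0.00046 and 0.0015; adjusted, 0.0103 and 0.0171), and 0.688 without the 2 farthest. Of the 45 pairs, 7 had an adjusted p under 0.05 for the Pearson correlation, all positive. Genes of 1 library share its cell makeup and its scaling, and how often other pairs of genes correlate this way was not tested.

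For each of the 10, the gene outside the list with the most similar profile over the 22 mice was found among 7719 genes with a mean of at least 10 TPM. The highest Pearson correlations were 0.973 for Pcsk1 with Rnf128, 0.976 for Pcsk2 with Man2a1, 0.973 for Cpe with Synpr, 0.918 for Pcsk1n with Fev, 0.923 for Scg5 with Bloc1s6 and 0.981 for Pam with Sdc2. For the granins they were 0.848 for Chga with Exosc9, 0.952 for Chgb with Ctsb, 0.914 for Scg2 with Man1a and 0.951 for Vgf with Ecd. Most of these profiles follow the difference between genotypes, but those of Bloc1s6 and Exosc9 differed more between backgrounds. Bloc1s6 averaged 9.46 and 11.2 TPM in C57 WT and Het, and 13.2 and 14.5 TPM in Mixed WT and Het. Exosc9 averaged 11.5 and 12.9 TPM in C57 WT and Het, and 9.26 and 10.9 TPM in Mixed WT and Het. All 10 matches describe likeness over these groups and no more.

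Some transcripts overlap these genes. Pcsk2os1 and Pcsk2os2, which are antisense to Pcsk2, averaged 12.2 to 14.3 TPM and 1.99 to 3.86 TPM by group, Eras beside Pcsk1n averaged 0.101 to 1.08 TPM and B230216N24Rik in Pam 1.34 to 2.24 TPM. Whether counting used strand is not given in the sources used here, so reads of such pairs may be shared, at levels far below those of Pcsk2, Pcsk1n and Pam.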

How the data were processed

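Polyadenylated RNA of islets from 22 male mice was sequenced as 150 bp paired-end reads, per the labels' protocols. The authors deposited 1 table of TPM for 57010 Ensembl genes, and each column summed to 1000000. STAR 2.7.10b, MultiQC 1.7 and build mm39 are named in the submitters' processing notes; the counting tool and annotation are not given in the sources used here. Library depth cannot be read from TPM and is unknown, no counting interval was computed, and a fall in very abundant transcripts raises the other values. Promoter sequences are RefSeq's, on build GRCm38.p6, and no coordinates of that build were used with the table.

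Columns were matched to samples by their labels. Tests used log2(TPM + 1), a scale that understates changes of low genes, for 16756 genes with at least 1 TPM in at least 5 mice. limma 3.58.1 in R 4.3.3 (lmFit, eBayes with trend) fitted the 4 group means over all 22 mice, with Benjamini-Hochberg adjustment and a threshold of 0.05. Contrasts were Het against WT on each background, the difference between those 2 (the interaction), and Mixed against C57 for WT and for Het mice. Groups were called separate when no value overlapped. The script was tested on simulated data.

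The 10 genes, the related lists and the marker lists were chosen with earlier results of these data known. Related genes were named by rule: an adjusted p under 0.05 and no overlap on at least 1 background, at most 5 a list by size of difference, plus the islet hormones, and for likeness the closest gene by Pearson correlation. Alternatives were another pseudocount (0.1), other filters and scalings, covariates, sample weights, stricter thresholds, fits on fewer groups and leaving out each mouse. Library numbers run group after group in the labels, so library order and group cannot be told apart. The values of 1 gene of the related lists are not reported here.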

Additional observations from a re-analysis of the deposited data

Results flagged for a closer look

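In 5 of 40 combinations of gene and group, the highest or lowest mouse stood apart from the rest by Dixon's test, which chance alone does in about 1 in 20 groups. Pcsk1 was highest in Mixed Het replicate 6, at 722 TPM. Pcsk2 and Pam were both highest in C57 Het replicate 2, at 1693 and 202 TPM. Cpe was highest in Mixed Het replicate 1, at 4804 TPM. Chga was lowest in C57 Het replicate 3, at 12067 TPM.

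The Pcsk1n difference between Het and WT was larger in Mixed than in C57 by 0.52 on the log2(TPM + 1) scale, by the test of that difference itself (limma, adjusted p = 0.045). That call is close to the threshold, and 7.36% of all genes had one. Over the fits that left out 1 mouse its adjusted p ran from 0.0347 to 0.0815.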

How the results depend on the processing

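With a log2 difference of at least 1 required, 1 gene was called in Het against WT in C57 in place of 7, and 3 in Mixed in place of 8, where 1.56% and 3.17% of all genes were called higher. Of the interactions 1 was called, and 0 with no filter on low values, with the acinar or the non-beta hormone score as a covariate, with an adjusted p under 0.01, with a log2 difference of at least 1, or without the eBayes trend (Pcsk1n at an adjusted p of 0.0501). With sample weights Vgf was called (adjusted p = 0.041) in place of Pcsk1n (adjusted p = 0.060). The adjusted p of Pcsk1n was lowest, at 0.017, with quantile normalization and highest, at 0.21, with the non-beta covariate. For Mixed against C57 in WT mice 1 gene was called, 0 with no filter, the acinar covariate, the 0.01 threshold or a log2 difference of at least 1, and 2 with quantile normalization (Pcsk1 and Pcsk1n, while Scg5 lost its call) or totals without the most abundant genes (Scg5 and Pcsk1n). In Het mice 2 were called, and 1 with no filter, quantile normalization, only the samples of the contrast, either covariate, the 0.01 threshold or a log2 difference of at least 1. Leaving out 1 mouse gave 7 to 8 calls in C57, 8 to 9 in Mixed, 0 to 2 interactions, 0 to 2 in WT and 1 to 2 in Het mice. Changed signs were all of differences that were not called. Chgb between WT backgrounds was -0.0037 with median-of-ratios scaling, -0.12 with quantile normalization, -0.044 with totals without the most abundant genes, -0.029 with the acinar and -0.010 with the non-beta covariate, and -0.070 with sample weights. The Cpe interaction was 0.38 with quantile normalization, 0.016 with the non-beta covariate and 0.051 with sample weights. Between Het backgrounds, Pcsk2 was -0.064 with quantile normalization and -0.0017 with totals without the most abundant genes, and Cpe was 0.096 with quantile normalization. With the non-beta covariate, Het against WT was -0.11 for Pcsk1n in C57 and -0.038 for Scg5 in Mixed. Without 1 mouse at a time, interactions ran from -0.088 to 0.037 for Cpe, -0.26 to 0.024 for Scg5, -0.0041 to 0.14 for Chgb and -0.037 to 0.27 for Scg2. Background differences ran from -0.11 to 0.0090 for Pcsk2 and -0.063 to 0.069 for Chgb in WT mice, and from -0.0020 to 0.13 for Chgb in Het mice. The causes were not tested. TPM gives no depth, so what depth limits is unknown. No paired analysis was possible because the replicate numbers only name mice and the labels tie no mouse of one group to a mouse of another.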
